A study of Mus musculus with 12 samples.

Results

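The genes examined were those of vitamin D activation and breakdown in the mouse kidney, 6 genes taken by symbol from 38924 gene IDs counted in each library: Cyp27b1, Cyp24a1, Vdr, Pth1r, Kl and Fgfr1. All 6 were among the 16150 genes that passed the filter on low counts. Whole kidneys were profiled by poly(A)-selected, stranded RNA sequencing in 12 libraries, 4 groups of 3. The knockout (KO) mice were Bmal1lox/lox/Pax8-rtTA/LC1, in which doxycycline at 2 mg/ml in the drinking water for 2 weeks from 8 weeks of age switched on LC-1 Cre and inactivated Arntl, the gene of the clock transcription factor BMAL1. The Pax8 promoter drives the doxycycline-dependent activator in the renal tubule, so other kidney cells still carry Arntl. Controls were wild-type (WT) littermates. All strains were on the C57BL/6J background, ate standard chow ad libitum and were kept at 12 h light and 12 h dark. The labels do not give the alleles or the doxycycline exposure of the controls apart from the knockouts. The light-phase kidneys date from 4 h after lights on (zeitgeber time 4, ZT4), and the dark-phase kidneys from 4 h after lights off (ZT16). Nothing in the labels says whether each library is a different animal. P-values therefore measure only the spread among libraries, part of which may be technical.

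The kidney makes the circulating active form of vitamin D. Cyp27b1 is the mitochondrial enzyme that adds the activating hydroxyl group to 25-hydroxyvitamin D, mainly in the proximal tubule, and Cyp24a1 is the enzyme that starts the breakdown of both forms. Vdr is the nuclear receptor for the active hormone. Parathyroid hormone acts through Pth1r, a receptor coupled to G proteins, and is known to raise Cyp27b1. FGF23, a hormone from bone, binds a complex of an FGF receptor such as Fgfr1 with the co-receptor klotho (Kl), and is known to lower Cyp27b1 and raise Cyp24a1. Active vitamin D itself raises Cyp24a1 through Vdr.

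Cyp27b1 (ENSMUSG00000006724) lies at chr10:127048250-127053006 on the plus strand of GRCm38, and Cyp24a1 (ENSMUSG00000038567) at chr2:170482708-170497145 on the minus strand. Vdr (ENSMUSG00000022479) lies at chr15:97854425-97910630, minus, and Pth1r (ENSMUSG00000032492) at chr9:110722085-110747145, minus. Kl (ENSMUSG00000058488) lies at chr5:150952607-150993817, plus, and Fgfr1 (ENSMUSG00000031565) at chr8:25513654-25575718, plus. Counts covered the exons of each gene. Cyp24a1 shares 2.33% of its exonic bases with Pfdn4, Pth1r 3.25% with Myl3 and Fgfr1 1.66% with Gm16159, each on the opposite strand. The strand setting of the counting is not given in the sources used here, so reads in those stretches cannot be told apart. Over all libraries Myl3 had 24 counts beside 111731 for Pth1r, and Gm16159 had 1 beside 14340 for Fgfr1. Pfdn4 had 5777 counts beside 36871 for Cyp24a1. Cyp27b1, Vdr and Kl shared no exonic base with another annotated gene.

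Upstream sequence is shown for Cyp27b1, the gene that passed the test in the most comparisons, and for Kl, the receptor gene that differed between the times in the knockout. Each is the RefSeq window (GRCm38.p6) of the 250 bases before the gene's start, plus strand, chr10:127047996-127048245 for Cyp27b1 and chr5:150952357-150952606 for Kl, and holds no annotated exon. Capitals mark matches to the motifs searched.
Cyp27b1: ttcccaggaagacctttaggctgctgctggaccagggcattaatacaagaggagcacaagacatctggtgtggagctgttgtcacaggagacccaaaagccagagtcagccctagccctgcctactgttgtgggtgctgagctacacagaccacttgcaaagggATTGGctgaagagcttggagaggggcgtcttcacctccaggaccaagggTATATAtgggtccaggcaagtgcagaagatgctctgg
Kl: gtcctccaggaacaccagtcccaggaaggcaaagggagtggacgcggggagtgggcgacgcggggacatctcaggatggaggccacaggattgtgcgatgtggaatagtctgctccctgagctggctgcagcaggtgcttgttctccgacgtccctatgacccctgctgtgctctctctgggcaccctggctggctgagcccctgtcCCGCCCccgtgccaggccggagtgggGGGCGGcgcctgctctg

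A set of 10 motifs was searched on both strands, in windows of this length before 32851 starts. They were the E-box CACGTG (in 6.02% of windows), its variant CACGTT (3.85%), AGGTCA (14.0%), the D-box TTATGNAA (3.07%), the cyclic AMP element TGACGTCA (1.55%), the TGACG within it (17.8%), CCAAT (33.8%), the GC box GGGCGG (32.7%), TATAAA (12.4%) and TATATA (5.25%). The Cyp27b1 window held CCAAT on the minus strand at -86 to -82 and TATATA at -37 to -32, counted from the start. The Kl window held GGGCGG on the minus strand at -43 to -38 and on the plus strand at -17 to -12. Neither window held the letters of the other motifs. Windows were found for 4 of the 6 genes. Cyp24a1 and Fgfr1 had none, so their upstream sequence was not searched.

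Counts assigned to genes ran from 25628887 to 38043491 per library. Npas2, a clock factor that can pair with BMAL1, was higher in knockout by 2.21 ± 0.17 (SE) on the log2 scale at ZT4 and 3.51 ± 0.19 at ZT16, and Dbp, a BMAL1 target, lower by a log2 difference of -1.56 ± 0.20 and -1.45 ± 0.20, all 4 with adjusted p from edgeR at or below 0.00115. Arntl itself did not pass the test (log2 difference -0.08 ± 0.14 at ZT4 and 0.43 ± 0.15 at ZT16). The Arntl counts were taken over the whole gene in RNA of the whole kidney, and any deleted exons were not counted apart. They therefore do not check the labels, and why Arntl did not pass was not tested. KO ZT16 replicate 2 stood apart from replicates 4 and 6: its first principal component score was 43.0 against -9.73 and -11.8, and mitochondrial transcripts took 22.3% of its counts against 14.1% and 14.0%. WT ZT16 replicate 5 was nearest to it, at 49.0 and 22.4%. The share was 16.3% to 18.0% in WT ZT4, 12.6% to 12.8% in KO ZT4 and 18.7% to 18.8% in the other WT ZT16 libraries. The summed level of 8 proximal tubule markers was 90514 CPM (counts scaled to library size) in KO ZT16 replicate 2, outside the 42001 and 42053 of the other 2 libraries. It ran from 41072 to 52322 in WT ZT4, 33838 to 36199 in KO ZT4 and 51907 to 81426 in WT ZT16, and no marker of this list was at 0. Kap, the kidney androgen-regulated protein, made up 82224 CPM of the sum in KO ZT16 replicate 2 and 31469 and 31570 CPM in replicates 4 and 6. Without Kap the other 7 markers summed to 10715 to 11564 CPM in WT ZT4, 10444 to 10697 in KO ZT4 and 10253 to 11151 in WT ZT16. In KO ZT16 they summed to 8289 CPM in replicate 2, the lowest of the 12 libraries, and to 10532 and 10484 CPM in replicates 4 and 6. Of these markers, 4 (Lrp2, Slc34a1, Slc22a6 and Slc13a3) were lowest in KO ZT16 replicate 2. The part of these differences in the results was not tested. Members' results and list counts that change with KO ZT16 replicate 2 are given with and without it. Those fits kept WT ZT16 replicate 5, the library nearest to it, so the omission was made in 1 genotype only. Of 6 adrenal cortex markers, Cyp11b1 and Cyp11b2 had 0 counts in every library and the sum was 0.613 to 1.16 CPM. In RNA from whole kidney, fewer cells of a type and less RNA per cell cannot be told apart.

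**Figure D1:**
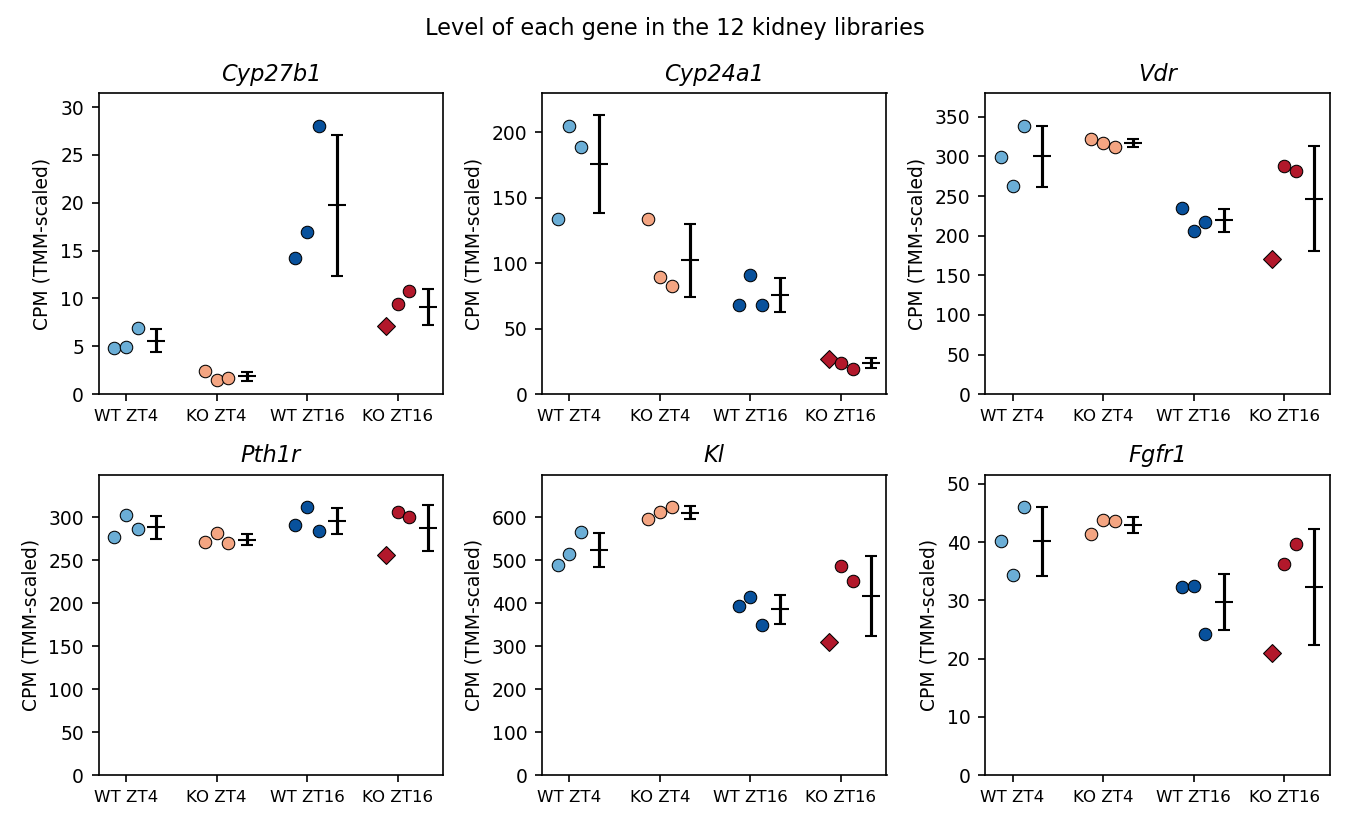
Level of each gene in every library in TMM-scaled CPM (y axis, from 0, a scale of its own in each panel) by group (x axis), with bars for mean ± SD of 3 libraries; the diamond is KO ZT16 replicate 2. Cyp27b1 and Cyp24a1 are lower in knockout at ZT16 without overlap, as are 7.95% of all tested genes. The diamond is the lowest library of its group for Cyp27b1, Vdr, Pth1r, Kl and Fgfr1.

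Loss of tubular Arntl went with lower RNA of both vitamin D enzymes, and the RNA of the receptors did not pass the test. Cyp27b1 was 3.01-fold lower in knockout at ZT4 and 2.16-fold lower at ZT16. Cyp24a1 was 3.22-fold lower at ZT16, and 1.72-fold lower at ZT4 where it missed the threshold. Averaged over both times the log2 difference was -1.35 ± 0.19 for Cyp27b1 (SE, adjusted p 0.000796, edgeR) and -1.24 ± 0.15 for Cyp24a1 (adjusted p 0.000207). In edgeR, 1 of the 6 genes passed at ZT4, where 3.29% of all tested genes did, 2 at ZT16 (background 4.03%) and 2 over both times (background 11.4%). In a fit without KO ZT16 replicate 2 the members called were 2, 4 and 4, while the share of all tested genes called rose to 15.8% at ZT4, 31.6% at ZT16 and 43% over both times. The threshold was an adjusted p of 0.05, with Benjamini-Hochberg adjustment over all 16150 genes.

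Cyp27b1, the activating enzyme, was the scarcest of the 6 per kilobase of exon at ZT4. Its level was 4.87, 4.89 and 6.95 CPM in WT ZT4 (replicates 1, 3 and 5) and 2.38, 1.50 and 1.67 CPM in KO ZT4 (replicates 2, 4 and 6). The ZT16 values were 14.2, 16.9 and 28.1 CPM in WT and 7.15, 9.41 and 10.8 CPM in KO. The genotypes did not overlap at either time, as was so of 18.4% of all tested genes that were lower at ZT4 and 7.95% at ZT16. The highest wild-type library at ZT16, replicate 5, was also the one with the high mitochondrial share. These levels rested on 49 to 809 counts per library.

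The log2 difference of Cyp27b1 between knockout and wild type was -1.59 ± 0.29 at ZT4 (SE, adjusted p 0.0110, edgeR) and -1.11 ± 0.25 at ZT16 (adjusted p 0.0293). Both calls depended on single libraries. At ZT4 the call was lost without KO replicate 4 (-1.45, adjusted p 0.0686) or without KO replicate 6 (-1.53, adjusted p 0.0589). At ZT16 it was lost without WT replicate 5 (-0.78, adjusted p 0.111), without KO replicate 4 (-1.14, adjusted p 0.0885) and in a fit of only the 6 libraries compared (-1.10, adjusted p 0.145). Without KO ZT16 replicate 2 the ZT16 difference was -0.98 (adjusted p 0.00976). The difference averaged over both times passed in all 19 alternatives tried, from -1.47 to -1.19.

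Cyp24a1, the enzyme that breaks the hormone down, stood at 133.9, 205.0 and 189.0 CPM in WT ZT4 and 133.9, 89.4 and 83.0 CPM in KO ZT4. At ZT16 it fell to 68.1, 90.6 and 68.4 CPM in WT and to 27.0, 24.1 and 19.3 CPM in KO. The genotypes met at ZT4, through WT replicate 1 and KO replicate 2, and were apart at ZT16, as was so of 7.95% of all tested genes that were lower. The log2 difference at ZT16 was -1.69 ± 0.22 (SE, adjusted p 0.000661, edgeR) and passed in all 20 alternatives, from -1.81 to -1.55.

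At ZT4 the log2 difference of Cyp24a1 was -0.78 ± 0.21 (adjusted p 0.0637, edgeR). It passed without KO ZT4 replicate 2 (-1.03, adjusted p 0.0285), and without KO ZT16 replicate 2, which enters only through the shared spread and the scaling (-0.78, adjusted p 0.0135). It also passed with DESeq2 (adjusted p 0.00858), with no filter on low counts (0.0367) and in a fit of only the 6 libraries compared (0.0123).

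**Figure D2:**
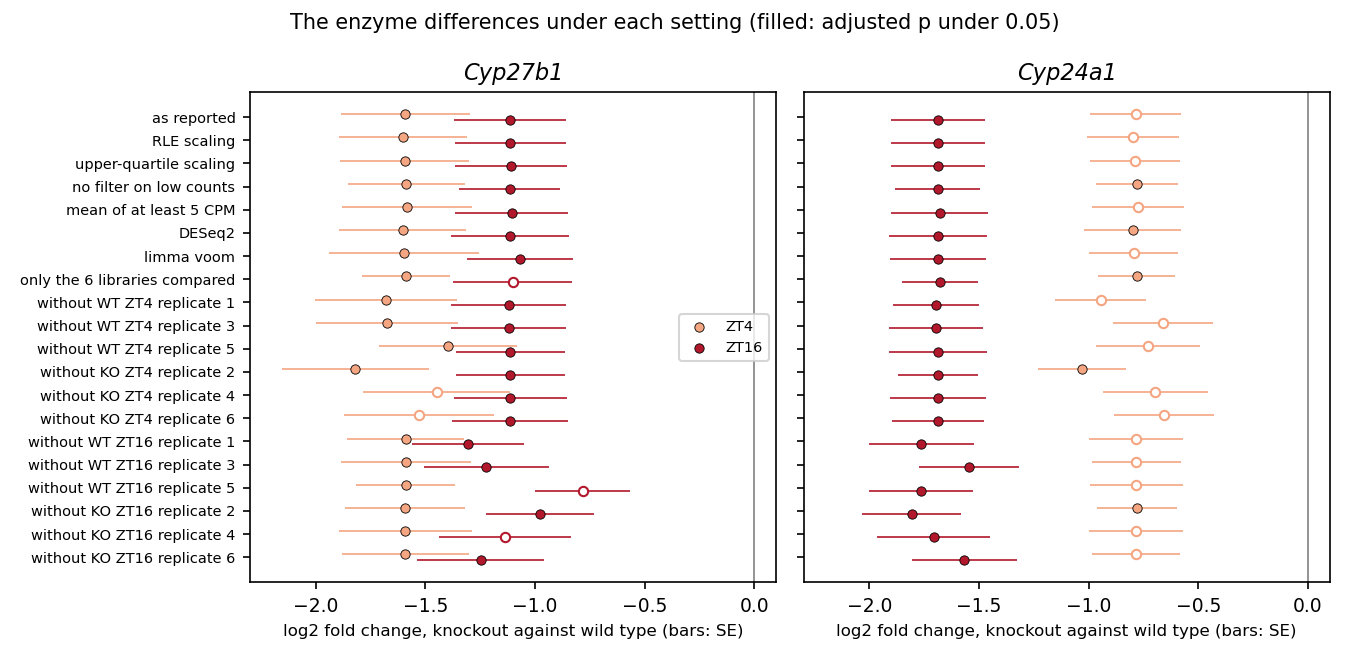
Fitted log2 difference of Cyp27b1 (left) and Cyp24a1 (right) between knockout and wild type (x axis, bars SE) under each setting (rows), at ZT4 (light) and ZT16 (dark); filled points have an adjusted p under 0.05. Every point is below 0; the Cyp24a1 points at ZT16 are all filled, and Cyp27b1 has open points where single libraries are left out.

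Vdr, the receptor, was at 299.4, 262.3 and 338.7 CPM in WT ZT4 and 322.5, 316.4 and 311.7 CPM in KO ZT4. At ZT16 it was 235.1, 205.9 and 217.0 CPM in WT and 170.0, 287.5 and 282.1 CPM in KO. KO ZT16 replicate 2 lay below every wild-type library at that time, and the other 2 knockout libraries lay above them. The log2 difference was 0.08 ± 0.17 at ZT4 (adjusted p 0.814, edgeR) and 0.17 ± 0.17 at ZT16 (adjusted p 0.671). Without that library, and with WT ZT16 replicate 5 kept, the ZT16 difference was 0.37 and passed (adjusted p 0.0105), as did the average over both times (0.22, adjusted p 0.0118). These 2 passed only in that fit, of 20 and 19 alternatives. The ZT16 difference ran from 0.043 to 0.37 with 1 library left out.

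Pth1r, the receptor for parathyroid hormone, had group means of 274.0 to 295.7 CPM. It was at 276.5, 302.3 and 286.2 CPM in WT ZT4, 271.2, 281.1 and 269.6 CPM in KO ZT4, 290.7, 312.3 and 284.2 CPM in WT ZT16, and 256.5, 305.5 and 300.6 CPM in KO ZT16. The genotypes overlapped at both times, and the times overlapped in both genotypes. The log2 difference between genotypes was -0.07 ± 0.08 at ZT4 (adjusted p 0.641, edgeR) and -0.04 ± 0.08 at ZT16 (adjusted p 0.868).

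Kl, the FGF23 co-receptor, was at 488.2, 514.8 and 565.8 CPM in WT ZT4 and 595.7, 612.0 and 624.5 CPM in KO ZT4. The knockout libraries were all higher, as were those of 19.3% of tested genes at this time, and the log2 difference of 0.22 ± 0.14 did not pass (adjusted p 0.402, edgeR, and 0.0474 in a fit of only the 6 libraries compared). At ZT16 Kl was at 394.4, 414.7 and 349.3 CPM in WT and 310.5, 487.0 and 452.4 CPM in KO, with replicate 2 again the low knockout library. The ZT16 difference was 0.11 ± 0.14 (adjusted p 0.762), and without that library 0.27 (adjusted p 0.0281). Over both times it was 0.17 ± 0.10 (adjusted p 0.292), and without that library 0.25 (adjusted p 0.00390). These 2 differences passed only in that fit, of 20 and 19 alternatives. At ZT16 the Kl difference ran from -0.018 to 0.27 with 1 library left out.

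Fgfr1, one of the FGF receptors that klotho can complete, was at 40.1, 34.3 and 46.1 CPM in WT ZT4 and 41.4, 43.8 and 43.7 CPM in KO ZT4. At ZT16 it was at 32.4, 32.5 and 24.2 CPM in WT and 21.0, 36.3 and 39.7 CPM in KO. The genotypes overlapped at both times, and the log2 difference was 0.10 ± 0.20 at ZT4 (adjusted p 0.809, edgeR) and 0.12 ± 0.20 at ZT16 (adjusted p 0.823). Without KO ZT16 replicate 2 the ZT16 difference was 0.34 (adjusted p 0.0590).

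**Figure D3:**
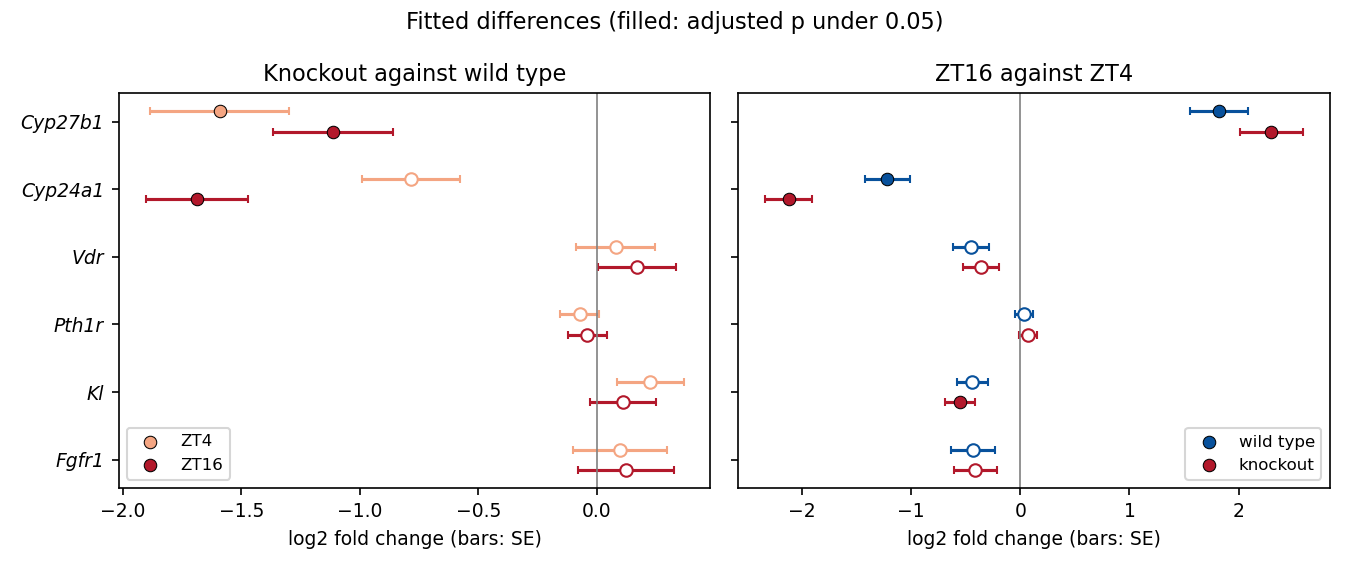
Fitted log2 difference (x axis, bars SE) of each gene (rows) between knockout and wild type at each time (left) and between ZT16 and ZT4 in each genotype (right); filled points have an adjusted p under 0.05. Cyp27b1 is below 0 on the left and above 0 on the right, Cyp24a1 is below 0 in both, and the 4 receptor genes lie nearer to 0 than both enzymes.

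Between the times, the 2 enzymes moved in opposite directions in both genotypes. Cyp27b1 was 3.53-fold higher at ZT16 than at ZT4 in wild type, with a log2 difference of 1.82 ± 0.26 (SE, adjusted p 0.00324, edgeR), and 4.92-fold higher in knockout, 2.30 ± 0.29 (adjusted p 0.00259). Cyp24a1 was 2.32-fold lower at ZT16 in wild type, -1.22 ± 0.21 (adjusted p 0.00790), and 4.34-fold lower in knockout, -2.12 ± 0.22 (adjusted p 0.000764). These 4 differences passed in all 21 alternatives. Of the 6 genes, 2 passed between the times in wild type, where 6.5% of all tested genes did, and 3 in knockout (background 10.5%). Omitting KO ZT16 replicate 2 gave 5 in wild type (background 33.9%) and 3 in knockout (background 8.22%). By p-value, Cyp24a1 ranked 9 and Cyp27b1 ranked 20 of the 16150 genes between the times in knockout. The order of Cyp27b1 means across the groups was KO ZT4 (1.85 ± 0.464 CPM, SD, n = 3), WT ZT4 (5.57 ± 1.2), KO ZT16 (9.11 ± 1.83) and WT ZT16 (19.7 ± 7.34), and no neighbours in it overlapped. Of all tested genes, 18.4% were lower in knockout without overlap at ZT4 and 7.95% at ZT16. The share was not taken for WT ZT4 beside KO ZT16. For Cyp24a1 the order was KO ZT16 (23.5 ± 3.87 CPM), WT ZT16 (75.7 ± 12.9), KO ZT4 (102.1 ± 27.7) and WT ZT4 (175.9 ± 37.3), where WT ZT16 overlapped KO ZT4 and KO ZT4 met WT ZT4.

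Vdr, Kl and Fgfr1 were lower in every ZT16 library than in any ZT4 library of the same genotype. Values lower without overlap were seen in 21.3% of tested genes in wild type and 22.2% in knockout. In wild type none of the 3 passed: the log2 difference was -0.45 ± 0.17 for Vdr (adjusted p 0.107, edgeR), -0.44 ± 0.14 for Kl (adjusted p 0.0776) and -0.44 ± 0.20 for Fgfr1 (adjusted p 0.172). Without KO ZT16 replicate 2, which enters this comparison only through the shared spread and the scaling, all 3 passed (adjusted p 0.00195, 0.00149 and 0.0131), as they did in a fit of only the 6 wild-type libraries (adjusted p 0.0139, 0.0128 and 0.0406). Kl also passed with DESeq2 (adjusted p 0.0354). In knockout Kl fell by 0.55 ± 0.14 on the log2 scale (adjusted p 0.0335), a call lost without any one of the 3 KO ZT4 libraries (adjusted p 0.0813 to 0.107), in a fit of only the 6 knockout libraries (adjusted p 0.130) and with the replicate number as a block (adjusted p 0.0685). Vdr (-0.36 ± 0.17, adjusted p 0.136) and Fgfr1 (-0.41 ± 0.20, adjusted p 0.158) did not pass there. Leaving out KO ZT16 replicate 2 brought these knockout differences nearer to 0, to -0.39 for Kl (adjusted p 0.0183), -0.16 for Vdr (adjusted p 0.292) and -0.18 for Fgfr1 (adjusted p 0.380). Pth1r differed by 0.04 ± 0.08 in wild type and 0.07 ± 0.08 in knockout.

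The interaction of genotype and time asks whether the knockout difference itself changed between ZT4 and ZT16. By edgeR none of the 6 genes passed, against 0.0186% of all tested genes, and 1 had an unadjusted p under 0.05. DESeq2 and limma voom also called none. That gene was Cyp24a1, with an interaction of -0.90 ± 0.30 on the log2 scale (unadjusted p 0.00976, adjusted p 0.9996), the larger knockout difference being at ZT16. The Cyp24a1 interaction ran from -1.03 to -0.66 with 1 library left out. The interaction of Cyp27b1 was 0.48 ± 0.39 (unadjusted p 0.239), and ran from 0.28 without WT ZT16 replicate 1 to 0.81 without WT ZT16 replicate 5. A smaller or larger knockout effect at one time was therefore not shown for either enzyme.

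Per kilobase of exon, Cyp27b1 RNA stood far below Cyp24a1 RNA at ZT4 and closer to it at ZT16. The ratio of Cyp27b1 to Cyp24a1 was 5.03%, 3.30% and 5.09% in WT ZT4 and 2.45%, 2.33% and 2.78% in KO ZT4. At ZT16 it was 28.9%, 25.8% and 56.7% in WT and 36.6%, 54.0% and 77.0% in KO. The ratio was 7.94-fold higher at ZT16 in wild type and 21.2-fold higher in knockout, with no overlap. It was lower in knockout at ZT4 without overlap, and overlapped between genotypes at ZT16. Two-sided exact permutation tests on the log2 ratio gave p = 0.1 for both time comparisons and for genotype at ZT4, the smallest that 3 against 3 libraries allow, and p = 0.3 for genotype at ZT16. Adjusted over these 4 comparisons the values were 0.133 and 0.3. With 3 libraries a group this test cannot reach 0.05, so by itself it does not settle whether the ratio differed. Between the times, the edgeR tests of the 2 enzymes given above passed in opposite directions in both genotypes.

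**Figure D4:**
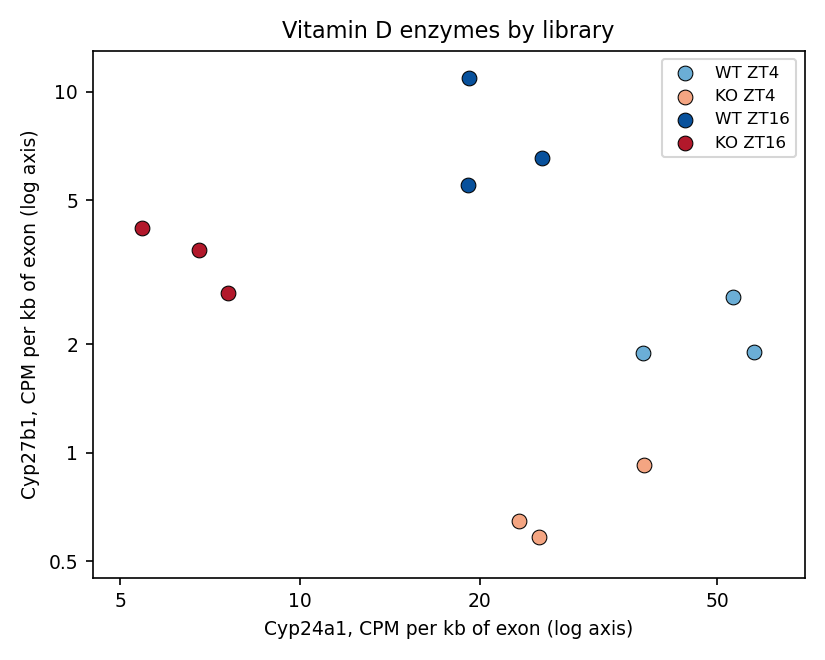
Cyp27b1 (y axis) against Cyp24a1 (x axis) in each of the 12 libraries, both as CPM per kilobase of exon on log axes, coloured by group. The ZT16 libraries lie above and to the left of the ZT4 libraries of the same genotype, and the knockout libraries lie below the wild-type libraries of the same time.

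Levels of different genes were compared as CPM per kilobase of exon. In WT ZT4 Pth1r was highest (mean 98.6), followed by Kl (56.1), Vdr (53.1) and Cyp24a1 (49.4), whose libraries overlapped, then Fgfr1 (4.07) and Cyp27b1 (2.16). In KO ZT4 the order was the same and no neighbours overlapped, with Cyp24a1 at 28.7 and Cyp27b1 at 0.718. In WT ZT16 Cyp27b1, at 7.66, stood above Fgfr1, at 3.01, and Cyp24a1 was at 21.3. In KO ZT16 Cyp24a1 was down to 6.60, next to Cyp27b1 at 3.54 and Fgfr1 at 3.27, the last 2 of which overlapped. Pth1r stayed first at 101.1 in WT ZT16 and 98.3 in KO ZT16.

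The genes whose log2 CPM followed each gene most closely over the 12 libraries were sought among 12565 protein-coding genes averaging 1 CPM or more, by Pearson's r. The 12 points fall in 4 groups and carry differences between whole libraries, as of KO ZT16 replicate 2, and r takes no account of the size of the changes. For Cyp27b1 they were Mtmr6 (r = 0.965), Zfand2a (0.962) and D5Ertd579e (0.950), whose own changes were small, Mtmr6 having group means of 89.5 to 103.5 CPM. For Cyp24a1 they were Cldn12 (0.931), a claudin of the tight junction, Rufy2 (0.929) and Cald1 (0.928). For Pth1r they were Hnf4a (0.878), a transcription factor of the proximal tubule, B4galt5 (0.871) and Trappc5 (0.865). For the other 3 genes they were Kif16b (0.993), Ccdc93 (0.984) and Eif4ebp2 (0.984) for Vdr, Ptk2b (0.990), Glis3 (0.988) and Foxp1 (0.988) for Kl, and Myo1d (0.993), Ttc28 (0.991) and Epn1 (0.984) for Fgfr1. Vdr, Kl and Fgfr1 correlated with each other at 0.92 to 0.94 over the 12 libraries. In deviations from the group means they did so at 0.85 to 0.92, and Pth1r correlated with them at 0.58 to 0.86. The listed genes therefore need not be particular to each member.

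The supply of vitamin D to the kidney rests on 25-hydroxylases, the carrier protein Gc and the endocytic receptors that take it up, and its action on partners of Vdr. Of 19 genes listed for these steps 18 were tested, and over both times 1 rose and 2 fell in knockout, beside 11.4% of all tested genes called. The median log2 difference was 0.08 in this list and 0.01 over all tested genes. Cyp27a1, a mitochondrial enzyme able to make 25-hydroxyvitamin D, had means of 56.6 ± 0.666 CPM in WT ZT4 and 41.1 ± 2.76 in KO ZT4, and of 72.8 ± 4.15 and 50.7 ± 2.32 at ZT16 (SD, n = 3). Its log2 difference was -0.49 ± 0.05 over both times (adjusted p 0.000109, edgeR), and its call held in all 19 alternatives. Gc, which carries vitamin D in plasma, rose by 0.34 ± 0.07 (adjusted p 0.00710). Rxrg, a retinoid X receptor, fell by 1.62 ± 0.35 (adjusted p 0.0108) from a low level, 0.825 to 0.141 CPM at ZT4 and 0.450 to 0.275 CPM at ZT16. Lrp2 and Cubn, the endocytic receptors, did not pass at either time. At ZT4 alone Gc and Amn, a partner of Cubn, rose and Cyp27a1 and Rxrg fell, and at ZT16 Cyp27a1 was the 1 gene of the list that passed. The shares of all tested genes called were 3.29% at ZT4 and 4.03% at ZT16. At ZT4 the calls of Gc (adjusted p up to 0.126), Amn (up to 0.151) and Rxrg (up to 0.0710) were lost in 5 of 20, 9 of 20 and 5 of 19 alternatives. Such tallies, here and below, include the stricter threshold of 0.01 on the same fit. Any call with an adjusted p between 0.01 and 0.05 is lost there by definition. Leaving out KO ZT16 replicate 2 turned the counts into 3 higher and 2 lower at ZT4, 5 and 2 at ZT16 and 9 and 3 over both times, where 15.8%, 31.6% and 43% of all tested genes were then called.

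Signalling below Pth1r runs through G proteins, adenylyl cyclase, protein kinase A and phospholipase C. Of 22 such genes 21 were tested, and over both times 2 rose and 2 fell, with a median log2 difference of 0.18. Beside them, 11.4% of all tested genes were called over both times. Sik1, a kinase induced by cyclic AMP, had means of 28.6 ± 4.98 CPM in WT ZT4 and 22.8 ± 2.56 in KO ZT4, and of 45.3 ± 7.50 and 22.9 ± 5.39 at ZT16 (SD, n = 3). It fell by 0.98 ± 0.19 on the log2 scale at ZT16 (adjusted p 0.00935, edgeR, but 0.0896 in a fit of only the 6 libraries compared) and by 0.66 ± 0.13 over both times (adjusted p 0.00699). Slc9a3r1, a scaffold protein that holds Pth1r and phosphate transporters at the membrane, fell by 0.27 ± 0.05 over both times (adjusted p 0.00419). Adcy6 (0.53 ± 0.16, adjusted p 0.0481) and Plcb3 (0.34 ± 0.10, adjusted p 0.0385), an adenylyl cyclase and a phospholipase C, rose. They lost their calls in 13 and 10 of 19 alternatives, with adjusted p up to 0.119 and 0.103. At ZT4 edgeR called none of the 21 (4 with an unadjusted p under 0.05, DESeq2 1 and limma voom 0), beside 3.29% of all tested genes. At ZT16 edgeR called 0 higher and 2 lower, Sik1 and Slc9a3r1, beside 4.03% of all tested genes. The ZT16 call of Slc9a3r1 (log2 difference -0.27, adjusted p 0.0483) was lost in 14 of 20 alternatives. With KO ZT16 replicate 2 left out, the counts became 3 higher and 1 lower at ZT4 (15.8% of all tested genes), 8 and 2 at ZT16 (31.6%) and 10 and 2 over both times (43%).

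FGF23 receptor signalling passes from the receptors through FRS adaptors and the MAP kinases to feedback inhibitors and ETS factors. Of 24 genes 23 were tested, and over both times 3 rose and 1 fell, with a median log2 difference of 0.13. The share of all tested genes called over both times was 11.4%. Fgf23 itself had 0 counts in all 12 libraries. Dusp6, a phosphatase that restrains MAP kinase, had means of 76.2 ± 7.35 CPM in WT ZT4 and 70.4 ± 11.0 in KO ZT4, and of 121.1 ± 13.7 and 76.8 ± 5.60 at ZT16 (SD, n = 3). It fell by 0.66 ± 0.12 on the log2 scale at ZT16 (adjusted p 0.00990, edgeR, but 0.0534 in a fit of only the 6 libraries compared) and by 0.39 ± 0.09 over both times (adjusted p 0.0157). Etv4, an ETS factor at 0.843 to 1.93 CPM, rose by 0.94 ± 0.18 over both times (adjusted p 0.00619), Fgfr2 by 0.33 ± 0.07 (adjusted p 0.0124) and Frs3, an adaptor, by 0.42 ± 0.11 (adjusted p 0.0245, up to 0.0690 in 7 of 19 alternatives). At ZT4 edgeR called none of the 23 (5 with an unadjusted p under 0.05, DESeq2 1 and limma voom 0), beside 3.29% of all tested genes. At ZT16 edgeR called 0 higher and 1 lower, Dusp6, beside 4.03% of all tested genes. With KO ZT16 replicate 2 left out, 6 rose and 0 fell at ZT4 (15.8% of all tested genes), 9 and 1 at ZT16 (31.6%) and 13 and 1 over both times (43%).

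Klotho is shed from the cell surface by proteases, and FGF23 is protected by a glycosyltransferase. Of 8 such genes 6 were tested, and 1 passed over both times: Galnt3, that glycosyltransferase, fell by 0.36 ± 0.09 (adjusted p 0.0277, edgeR), a call lost in 7 of 19 alternatives (adjusted p up to 0.0781). Over both times 11.4% of all tested genes were called. At ZT4 and at ZT16 edgeR called none of the 6, with 1 at an unadjusted p under 0.05 each time, DESeq2 calling 1 and 0 and limma voom 0. The shares of all tested genes called by edgeR were 3.29% at ZT4 and 4.03% at ZT16. Without KO ZT16 replicate 2 the counts became 0 higher and 1 lower at ZT4 (15.8% of all tested genes), 2 and 1 at ZT16 (31.6%) and 3 and 1 over both times (43%).

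Of 19 genes listed as targets of Vdr or as carriers of calcium and phosphate, all tested, 4 rose and 2 fell over both times, with a median log2 difference of 0.15. Among all tested genes 11.4% were called over both times. Slc34a2, a sodium-phosphate cotransporter, had means of 3.66 ± 0.701 CPM in WT ZT4 and 11.9 ± 1.85 in KO ZT4, and of 2.48 ± 0.457 and 6.78 ± 1.2 at ZT16 (SD, n = 3). It rose by 1.58 ± 0.14 over both times (adjusted p 1.3e-05, edgeR). Cdkn1a, the cell cycle inhibitor p21 and a known target of Vdr, had means of 6.14 ± 1.28 and 17.2 ± 1.50 CPM at ZT4 and of 5.51 ± 0.105 and 16.4 ± 2.81 at ZT16, and rose by 1.53 ± 0.11 (adjusted p 4.0e-06). Slc20a2, another phosphate transporter, rose by 0.38 ± 0.05 (adjusted p 0.000514). These 3 calls over both times held in all 19 alternatives. Cldn12 fell by 0.20 ± 0.05 (adjusted p 0.0343), lost in 10 of 19 alternatives (adjusted p up to 0.0986). Outside the naming rule, and chosen after their values were seen, Trpv5, the distal tubule calcium channel, rose by 0.36 ± 0.10 (adjusted p 0.0363) and Fbp1 fell by 0.21 ± 0.06 (adjusted p 0.0435), calls lost in 11 and 12 alternatives (adjusted p up to 0.0979 and 0.111). The calcium-binding proteins Calb1 and S100g and the main phosphate cotransporters Slc34a1 and Slc34a3 did not pass at either time. Of 6 markers of the distal convoluted and connecting tubule, which share Trpv5, Calb1 and S100g with this list, 2 rose over both times. Their summed level was 1414 to 1566 CPM in WT ZT4, 1678 to 1848 in KO ZT4, 1515 to 1862 in WT ZT16 and 1732, 1780 and 2852 in KO ZT16, and their part in these counts was not tested. The 2852 CPM was KO ZT16 replicate 2, where S100g alone stood at 1706 CPM against 519 and 528 CPM in replicates 4 and 6. Without S100g the other 5 markers summed to 1146 CPM there, and to 1261 and 1204 CPM in those 2 libraries. Of the target and transport list, edgeR on all 12 libraries called 3 higher and 0 lower at ZT4, beside 3.29% of all tested genes. At ZT16 it called 3 and 0 again, beside 4.03%. The 3 were Cdkn1a, Slc34a2 and Slc20a2 each time, and Slc20a2 lost its ZT4 call in 14 of 20 alternatives. Without KO ZT16 replicate 2 the counts of the target and transport list became 5 higher and 2 lower at ZT4 (15.8% of all tested genes), 7 and 6 at ZT16 (31.6%) and 8 and 5 over both times (43%).

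**Figure D5:**
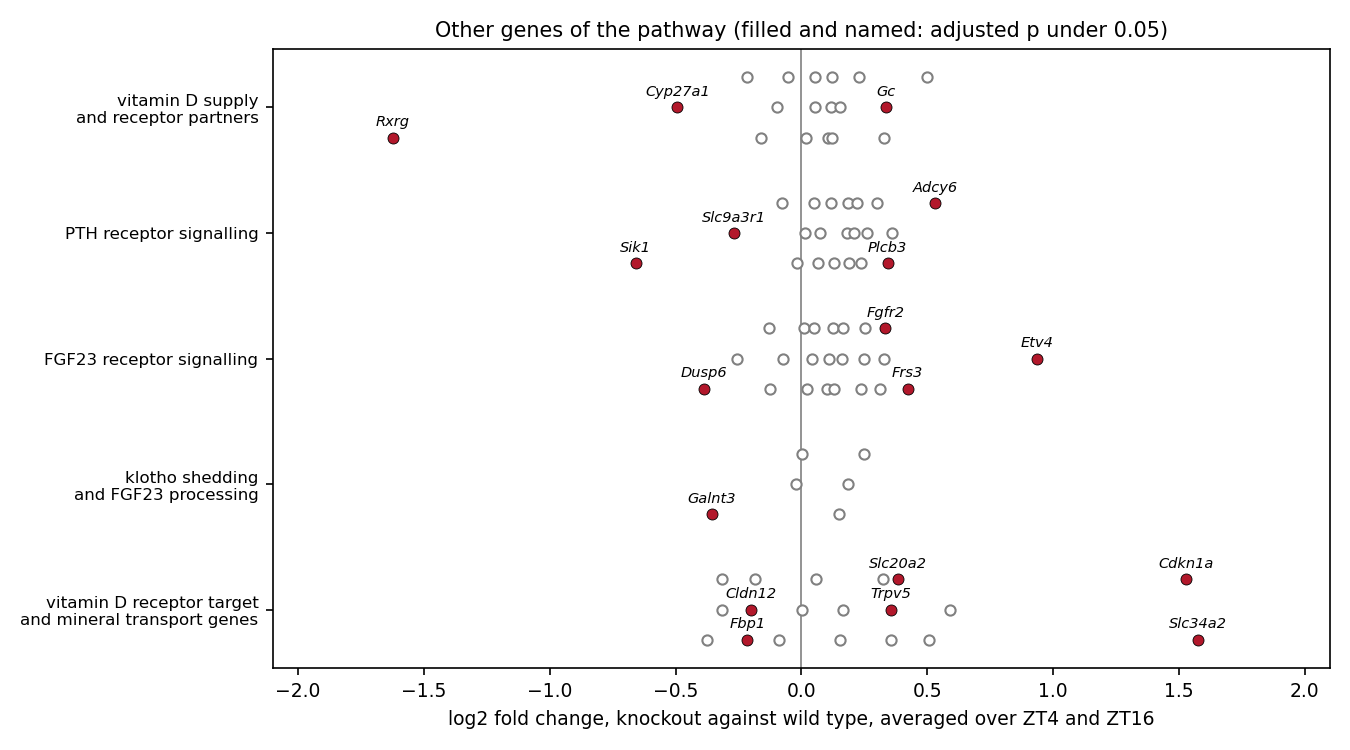
Fitted log2 difference between knockout and wild type averaged over both times (x axis) for the tested genes of 5 pathway lists (rows, points spread vertically for legibility); filled and named points have an adjusted p under 0.05. Slc34a2 (1.58) and Cdkn1a (1.53) lie farthest to the right and Rxrg (-1.62) farthest to the left.

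Between the times, edgeR called 1 of 18 genes of the supply list in wild type and 2 in knockout, 1 of 21 of the Pth1r list in each, 5 of 23 of the FGF23 receptor list in wild type and 6 in knockout, and 1 and 3 of 19 of the target and transport list, beside 6.5% of all tested genes in wild type and 10.5% in knockout. Omitting KO ZT16 replicate 2, which enters the wild-type comparison only through the shared spread and the scaling, gave 3 higher and 4 lower in the supply list in wild type, 3 and 5 in the Pth1r list, 3 and 6 in the FGF23 receptor list, 1 and 1 in the shedding and processing list and 3 and 4 in the target and transport list (33.9% of all tested genes). In knockout it gave 0 and 1, 1 and 0, 1 and 3, 3 and 0, and 0 and 2 in the same order (8.22% of all tested genes). Sgk1, a kinase of sodium and phosphate transport control, was higher at ZT16 by 1.25 ± 0.19 on the log2 scale in wild type (adjusted p 0.00397, edgeR), and by 0.74 ± 0.19 in knockout (adjusted p 0.0322), a call lost without any one of the KO ZT4 libraries (adjusted p up to 0.129). Etv5, an ETS factor, was lower by 0.70 ± 0.11 in wild type (adjusted p 0.00427) and by 0.51 in knockout (adjusted p 0.0174, a call lost in 6 of 21 alternatives). Dusp6 was higher by 0.67 ± 0.12 in wild type (adjusted p 0.0112, but 0.0568 without WT ZT4 replicate 5 and 0.0522 without WT ZT16 replicate 5) and by 0.12 ± 0.12 in knockout, which did not pass (adjusted p 0.481). The difference between these 2 did not pass either (-0.54 ± 0.18, adjusted p 0.9996). Cyp27a1 was higher by 0.36 ± 0.08 in wild type (adjusted p 0.0197) and by 0.30 ± 0.08 in knockout (adjusted p 0.0337), calls lost in 7 and 11 of 21 alternatives. Creb1, the transcription factor that protein kinase A activates, was higher at ZT16 by 0.39 in wild type (adjusted p 0.0197) and 0.37 in knockout (adjusted p 0.0219), calls lost in 6 and 5 of 21 alternatives. Spred2, an inhibitor of MAP kinase signalling, was lower by 0.75 in wild type (adjusted p 0.0222) and 0.74 in knockout (adjusted p 0.0212), calls lost in 7 and 6. Slc34a2 was lower at ZT16 in knockout by 0.82 ± 0.18 (adjusted p 0.0207), a call lost in 5 of 21. Slc20a2 was lower by 0.41 in wild type (adjusted p 0.0101) and by 0.25 in knockout (adjusted p 0.0482), calls lost in 3 and 16. Also lower in knockout were Amn by 0.62 (adjusted p 0.0233) and Spry1, of the FGF23 receptor list, by 0.46 (adjusted p 0.0295). Cldn12 was lower there by 0.29 (adjusted p 0.0368). The calls of Amn, Spry1 and Cldn12 were lost in 5, 6 and 8 of 21. Of the shedding and processing list, edgeR called 0 of 6 in wild type (2 with an unadjusted p under 0.05, DESeq2 1 and limma voom 0). It called 2 in knockout, Adam17, a protease that sheds klotho (0.34 ± 0.08, adjusted p 0.0272), and Galnt3 (0.51 ± 0.13, adjusted p 0.0335), both higher at ZT16 and both lost in 6 of 21 alternatives. No gene of the 5 lists passed for the interaction by edgeR, DESeq2 or limma voom. By edgeR 2 genes of the supply list, 1 of the Pth1r list, 3 of the FGF23 receptor list and 0 of the other 2 lists had an unadjusted p under 0.05.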

How the data were processed

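RNA was measured in 12 whole-kidney libraries, made from 500 ng of total RNA with TruSeq stranded mRNA reagents per the labels' protocols. The deposited values are raw read counts per gene. Per the submitters' processing notes these came from cutadapt 1.2.1, TopHat2 2.0.9 and HTSeq 0.5.4p3 on GRCm38. The authors' edgeR and limma steps in R 3.1.1 are named there too and their output was not used. The sources used here do not give the strand setting, the counting mode or the annotation release. Reads with no feature were 3.50% to 5.96%, ambiguous reads 0.411% to 0.534% and reads not uniquely aligned 30.8% to 43.0% of each library, and stayed out of library sizes and tests.

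Gene symbols came from GENCODE M21, which named 37607 of 38924 IDs. After filterByExpr and TMM scaling, the quasi-likelihood test of edgeR 4.0.16 was fitted once to the 12 libraries with 1 mean per group, in R 4.3.3, with Benjamini-Hochberg adjustment over 16150 genes. DESeq2 1.42.0 and limma 3.58.1 (voom) were alternatives. CPM are TMM-scaled, SE is that of the fitted log2 difference, and log2 CPM used a prior count of 2. The scripts were tested on simulated data. Members and gene lists were chosen with earlier results of these data known, so a list's count is no independent evidence. Named genes were the 6 members, clock genes that check the labels, the called genes of lowest adjusted p in each list and comparison (4 at most), and the 3 most correlated genes per member. The 2 knockout comparisons share no library with each other, and each shares its libraries with the time comparisons.

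Replicate numbers are shared between the times within a genotype. Deviations from the group means correlated at -0.27 to 0.05 for same-numbered and at -0.19 to 0.22 for differently numbered libraries. With 3 libraries a group this check cannot exclude a pairing. No label says what the numbers mark, so the main fit did not pair libraries, and the number as a block was an alternative between the times.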

Additional observations from a re-analysis of the deposited data

How the results depend on the processing

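The directions and calls of both enzymes averaged over both times, of Cyp24a1 at ZT16 and of both enzymes between the times held under every alternative run: scaling by RLE or upper quartile, testing unfiltered genes or those averaging 5 CPM or more, DESeq2, limma voom, an adjusted p of 0.01, only the libraries compared, each library left out and, between the times, the replicate block. The number of the 6 genes called at ZT4 was 1, and became 2 with no filter, 2 with DESeq2, 0 at an adjusted p of 0.01, 3 with only the 6 libraries compared, and 0 to 2 with a library left out. At ZT16 it was 2, and became 1 at an adjusted p of 0.01, 1 with only the 6 libraries, and 1 to 4 with a library left out. Over both times it ranged from 2 to 4, between the times in wild type from 2 to 5 with a library left out (5 with only the 6 libraries), and in knockout from 2 to 3. With the replicate number as a block, Kl between the times in knockout was -0.58 and lost its call (adjusted p 0.0685), and no other member's call changed. The Fgfr1 interaction changed sign, from 0.026 to -0.022 with limma voom and to -0.021 with the replicate block. With a library left out, values that did not pass crossed 0 at ZT4 for Vdr (-0.011 to 0.17), Fgfr1 (-0.0053 to 0.21) and Arntl (-0.19 to 0.097), and at ZT16 for Pth1r (-0.086 to 0.026), Kl (-0.018 to 0.27) and Fgfr1 (-0.050 to 0.34). They did so in the interaction for Vdr (-0.035 to 0.29), Pth1r (-0.013 to 0.097), Kl (-0.24 to 0.047) and Fgfr1 (-0.15 to 0.25). Among all tested genes the count called moved from 531 to between 207 and 2883 at ZT4, from 651 to 199 to 5102 at ZT16, from 1834 to 736 to 6943 over both times, from 1050 to 209 to 5479 between the times in wild type, from 1691 to 35 to 3670 in knockout, and from 3 to 1 to 18 for the interaction. The cause was not tested. Depth limits Cyp27b1 most, with 49 counts in its lowest library.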
